A study of Mus musculus with 19 samples.

Results

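The 7 genes described here, Scx, Tnmd, Mkx, Fmod, Thbs4, Kera and Egr2, are used as identity genes of tendon cells. They were chosen by name from the 27998 genes measured, and all 7 had enough transcripts to be tested in every comparison of library sums. Cells of the mouse hind limb site at which the Achilles tendon is cut were sequenced as 19 single cell libraries, in a model in which tenotomy and a burn of 30% of the body surface lead to heterotopic ossification, the formation of cartilage and bone outside the skeleton. The groups were day 0 with 4 libraries, taken without burn/tenotomy, and day 3, day 7 and day 21 after burn/tenotomy with 3, 4 and 4 libraries. A further 4 libraries came from injured mice given p7N3, a CD47-activating peptide, at 10 mg/kg daily by intraperitoneal injection for 3 days before and 3 days after injury. The labels name C57 mice and LysmCre/Tgfb1fx/fx mice, in which Cre under the lysozyme M promoter deletes Tgfb1 in the myeloid lineage, but only for all libraries together and for no single one, so genotype was not analysed here. Replicate 4 of p7N3 carries no harvest day in its labels, and the other p7N3 libraries are labelled day 7, so p7N3 was compared with day 7. The paper compared single cells of mice given p7N3 with those of mice given PBS. The labels used here do not say whether the day 7 libraries came from mice given PBS. An effect of the injections, or of another harvest day in replicate 4, can therefore not be told apart from one of the peptide. The labels do not say that the libraries came from separate mice, so p-values measure the spread between these libraries only.

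Tendon is built by tenocytes, fibroblasts that lay down parallel collagen I fibres. Scx (scleraxis) is a basic helix-loop-helix transcription factor of tendon progenitors, Mkx (Mohawk) is a homeobox factor of the tendon lineage, and Egr2 is a zinc finger factor that is also known from Schwann cells and activated myeloid cells. Tnmd (tenomodulin) is a membrane glycoprotein of mature tenocytes. Fmod (fibromodulin) and Kera (keratocan) are small leucine-rich proteoglycans that bind collagen fibrils, and Thbs4 (thrombospondin 4) is a secreted protein of the tendon matrix. Scx is transcribed in cells that can give rise to both tendon and cartilage in development, which is why cartilage genes were measured beside it.

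Tnmd, Mkx, Fmod, Thbs4 and Kera were higher together with Scx over all cells at day 21 than at day 0. Scx is a factor of the class that binds E-boxes. The upstream sequences of Tnmd, Fmod and Thbs4 are printed here. They are from RefSeq on GRCm38.p6, 5′ to 3′ on the strand of the gene, and end at the last base before the outermost start that GENCODE vM21 gives for the gene. Capitals mark matches to CANNTG, where N is any base, a pattern that is matched at the same places on both strands.
Tnmd, chrX:133850758-133850979, plus strand: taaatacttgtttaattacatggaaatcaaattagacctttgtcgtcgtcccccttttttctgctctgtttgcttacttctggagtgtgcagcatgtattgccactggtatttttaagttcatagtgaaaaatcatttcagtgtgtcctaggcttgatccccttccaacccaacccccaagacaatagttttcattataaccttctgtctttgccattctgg
Fmod, chr1:134037004-134037253, plus strand: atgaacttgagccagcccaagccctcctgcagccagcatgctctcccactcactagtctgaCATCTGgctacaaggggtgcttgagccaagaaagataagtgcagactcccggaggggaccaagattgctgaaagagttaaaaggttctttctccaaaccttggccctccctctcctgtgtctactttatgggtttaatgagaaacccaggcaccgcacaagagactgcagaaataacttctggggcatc
Thbs4, chr13:92794819-92795068, minus strand: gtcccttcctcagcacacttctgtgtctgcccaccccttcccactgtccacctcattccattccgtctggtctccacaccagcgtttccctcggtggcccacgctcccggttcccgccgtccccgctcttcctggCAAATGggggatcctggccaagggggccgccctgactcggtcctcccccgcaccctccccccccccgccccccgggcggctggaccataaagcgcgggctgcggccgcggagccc
The Fmod and Thbs4 windows of 250 bases held 1 match each, CATCTG and CAAATG, and the Tnmd window of 222 bases held 0. Of all 32851 promoter windows in the table, 66.2% held at least 1 match in 250 bases and 62.4% in 222 bases, with a median of 1, so these windows held no more of these letters than promoters in general. GC content was 39.2% in the Tnmd window, 51.2% in the Fmod window and 70.8% in the Thbs4 window. No binding was measured.

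Levels are given as CPM, the unique molecular identifiers (UMIs, each a captured transcript) of a gene per 1000000 UMIs of the cells summed. A barcode counted as a cell from 500 genes on and up to a mitochondrial share of 25% of its UMIs, which left 39541 cells. A library held 571 to 1111 cells and 3019467 to 5383855 UMIs at day 0, and 907 to 3668 cells and 11064153 to 39870492 UMIs in the other groups, so rare genes are least precise at day 0. Cells were clustered without the 7 genes and without the tendon lists among the variable genes, and 11008 cells in clusters named from fibroblast markers are called stromal-like. All 8 stromal markers were above 0 in the stromal-like cells of every library. Stromal-like cells were 33.7% ± 5.58 of cells at day 0 (SD, n = 4), 14% ± 3.33 at day 3 (n = 3), 28.1% ± 3.69 at day 7 (n = 4), 36.1% ± 4.47 at day 21 (n = 4) and 28.1% ± 3.6 with p7N3 (n = 4). A level in all cells of the site therefore moves with the share of cells as well, and fewer cells of a type cannot be told apart there from less RNA per cell.

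A cluster of 3277 cells decided part of the values in stromal-like cells and is given apart from them, as the C1qtnf3 cluster. It was led by C1qtnf3, Cthrc1, Mfap4, Aspn, Mest, Tnmd, Scx, Postn, H19 and Acan. All 8 stromal markers were detected in it and its markers scored highest for stromal cells, but 1 chondrocyte marker, Acan, and 0 stromal markers were among these 10 genes, so it was not named. It held no cell of day 0 or day 3, and held 14.5% ± 6.34 of cells at day 7 (6.28% to 21.4%, n = 4), 4.97% ± 1.67 at day 21 and 8.75% ± 1.80 with p7N3. With another random seed of the clustering all 3277 cells came out as stromal-like. At day 7 the 8 stromal markers together were at 62242.7 to 72390.2 CPM in the cluster and 45595.9 to 60678.8 CPM in stromal-like cells. The 6 chondrocyte markers together were at 231.9 to 423 CPM against 61.1 to 139.8 CPM. The 9 macrophage markers together were at 93.5 to 121.4 CPM against 133.8 to 295.1 CPM. Each result in stromal-like cells that the cluster moves is therefore given without and with it, and the choice between the values is not made here.

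Over all cells of the site, 5 of the 7 tendon genes fell at day 3 against day 0 and 1 rose, and at day 21 against day 0, 6 rose and 1 fell (edgeR's quasi-likelihood test, adjusted p under the threshold of 0.05). Changes were frequent among all genes at day 3, where 37.3% of 12784 genes were called higher and 37.3% lower. At day 21 against day 0, 25.9% of 13170 genes were called higher and 25.9% lower. The median log2 fold change of the 7 genes was -2.30 at day 3 and 2.21 at day 21, and that of all genes tested was near 0 in both. At day 7 against day 0, 2 of the 7 rose and 1 fell, beside 32.1% of 14368 genes called higher and 31.4% lower. At day 21 against day 7, 5 of the 7 rose and 0 fell, beside 22.0% higher and 22.1% lower among 14887 genes. The 3 comparisons against day 0 share the same 4 day 0 libraries. Where libraries of groups are said below not to overlap, the share of all genes doing so is given only for p7N3.

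Scx, on chromosome 15 at 76457452 to 76459458 of GRCm38 (plus strand), was measured at 15.4, 35.4, 17 and 25.6 CPM in the 4 day 0 libraries and at 4.97, 14.8 and 1.545 CPM in the 3 day 3 libraries. It was at 23.0, 113.5, 76.9 and 64.4 CPM at day 7 and at 97.1, 81.2, 78.0 and 126.9 CPM at day 21. All 3 day 3 libraries lay below all day 0 libraries and all 4 day 21 libraries above them, whereas day 7 replicate 1 lay within the day 0 range. The log2 fold change against day 0 was -1.31 ± 0.62 (SE) at day 3 (adjusted p = 0.0809), 1.80 ± 0.44 at day 7 (adjusted p = 0.00508) and 2.24 ± 0.26 at day 21 (adjusted p = 0.000112). The day 3 value did not pass the threshold, and passed it at -2.42 when day 3 replicate 2 was left out. Day 7 replicates 2 to 4, at 64.4 to 113.5 CPM, overlapped or neared the day 21 range, and the difference between day 21 and day 7 was 0.44 ± 0.40 (adjusted p = 0.402).

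Mkx was measured from few transcripts, at 2.79, 6.29, 2.83 and 4.79 CPM at day 0 and at 1.27, 1.87 and 0.436 CPM at day 3. It was at 3.25, 5.74, 4.89 and 4.40 CPM at day 7 and at 9.60, 9.76, 8.50 and 10.8 CPM at day 21. The 4 day 21 libraries lay close together and above every other library. Mkx was higher at day 21 than at day 0 by 1.44 ± 0.23 on the log2 scale (adjusted p = 0.000587) and than at day 7 by 1.05 ± 0.18 (adjusted p = 0.00168). Its fall at day 3, -1.37 ± 0.47 (adjusted p = 0.0256), no longer passed without day 0 replicate 2, day 0 replicate 4 or day 3 replicate 1, with an adjusted p of up to 0.0734.

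**Figure D1:**
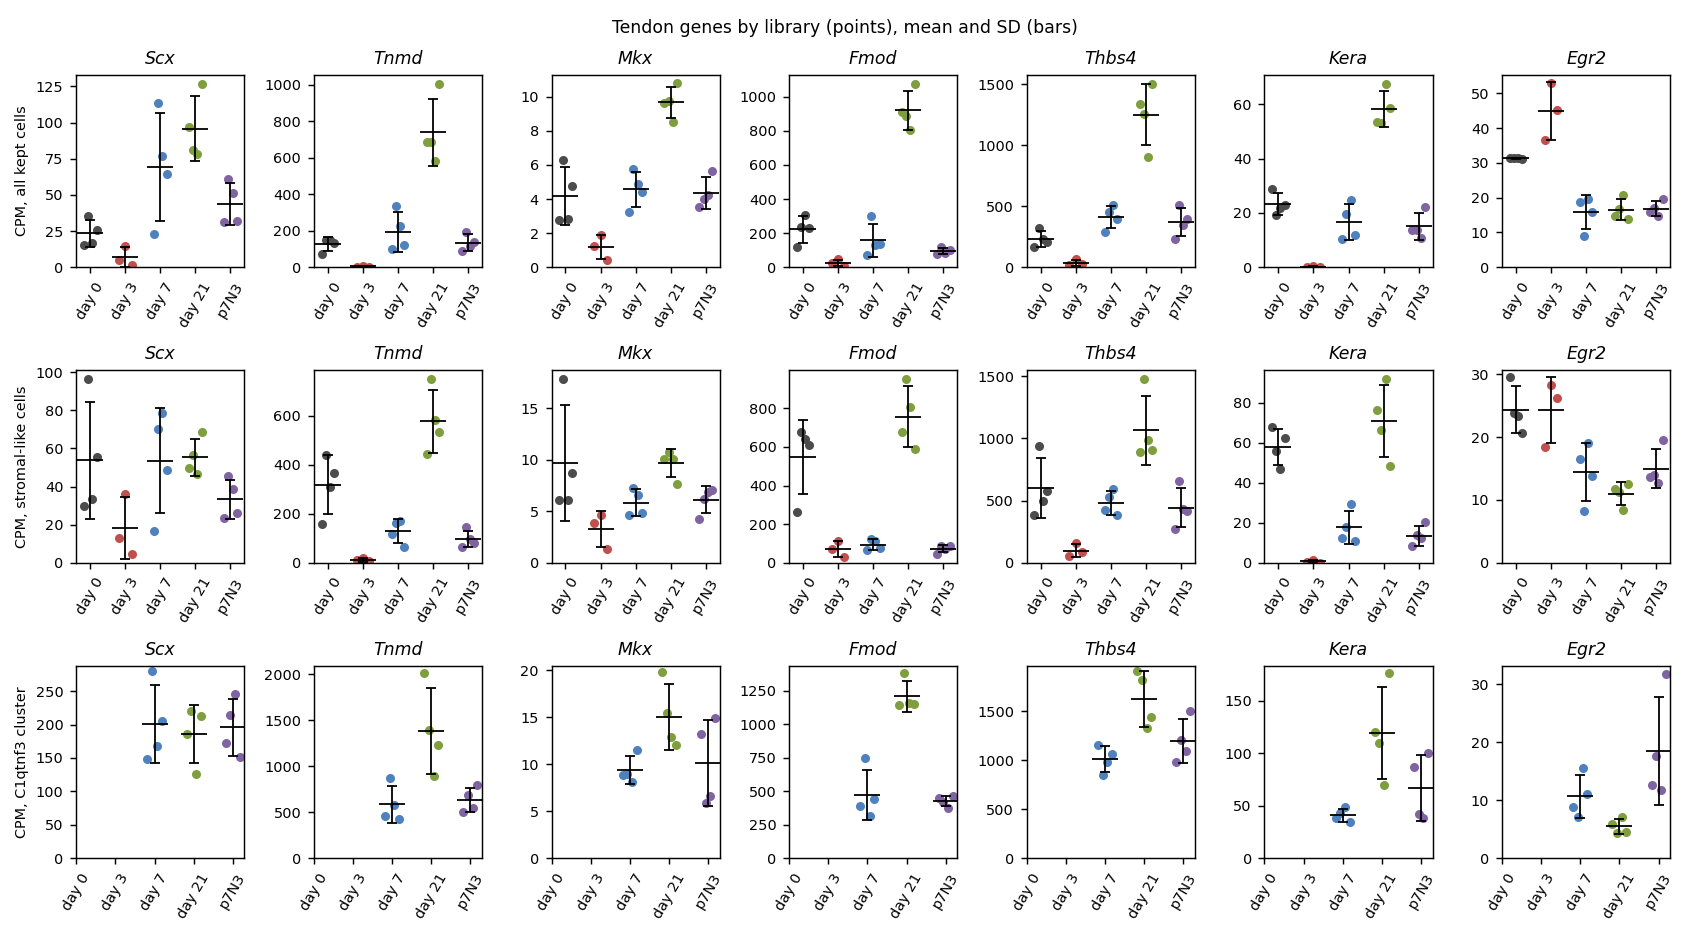
CPM of the 7 tendon genes in all kept cells of a library (upper panels), in its stromal-like cells (middle panels) and in its cells of the C1qtnf3 cluster (lower panels), by group; each point is a library and the bars are the mean and SD. Scx, Tnmd, Mkx, Fmod, Thbs4 and Kera have their highest mean at day 21 in all cells and Egr2 at day 3, and the C1qtnf3 cluster has no day 0 or day 3 cells.

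Tnmd, on chromosome X at 133850980 to 133865577, fell at day 3 and was highest at day 21. It was at 70.2, 151, 150.4 and 135.6 CPM at day 0 and at 3.52, 8.07 and 2.10 CPM at day 3. It had returned to 98.3, 335.8, 225.2 and 120.8 CPM at day 7 and reached 688, 685.3, 580.8 and 1007 CPM at day 21. The day 3 libraries lay below and the day 21 libraries above all others, while the day 0 and day 7 ranges overlapped. The log2 fold change was -4.41 ± 0.45 at day 3 against day 0 (adjusted p = 2.02e-05), 2.72 ± 0.26 at day 21 against day 0 (adjusted p = 4.69e-05) and 1.90 ± 0.38 at day 21 against day 7 (adjusted p = 0.00378). Day 7 against day 0, at 0.82 ± 0.38, did not pass (adjusted p = 0.0821), and passed without day 7 replicate 1 or day 7 replicate 4, which were the lowest libraries of that group.

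The matrix genes followed Tnmd at day 3 and day 21 and differed from each other at day 7. Fmod, on chromosome 1 at 134037254 to 134048277, was at 118.5, 236.5, 305.8 and 227.8 CPM at day 0, and at 24.0, 46.8 and 9.90 CPM at day 3. It was at 71.0, 297.6, 129 and 133.9 CPM at day 7 and at 909, 887, 806 and 1076 CPM at day 21. The day 7 libraries spread around the day 0 range, and the day 21 libraries lay above all others. Fmod fell by 2.69 ± 0.50 on the log2 scale at day 3 (adjusted p = 0.000926) and was higher at day 21 by 2.21 ± 0.25 against day 0 (adjusted p = 9.86e-05) and by 2.51 ± 0.39 against day 7 (adjusted p = 0.0011). Its day 7 value against day 0 was -0.30 (adjusted p = 0.535).

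Thbs4, on the minus strand of chromosome 13 at 92751590 to 92794818, was at 166.2, 321.6, 231.2 and 207.9 CPM at day 0 and at 18.2, 64.2 and 27.4 CPM at day 3. It was at 291.1, 450.6, 507.7 and 392 CPM at day 7 and at 1337, 1256, 906.3 and 1505 CPM at day 21. Day 7 replicate 1 overlapped the highest day 0 library in these CPM, and the day 21 libraries lay above all day 7 libraries. Thbs4 was the matrix gene among the 7 that was already higher at day 7, by 1.02 ± 0.21 (adjusted p = 0.00159). It was lower at day 3 by -2.30 ± 0.41 (adjusted p = 0.000722), and higher at day 21 by 2.60 ± 0.21 against day 0 (adjusted p = 1.95e-05) and by 1.58 ± 0.21 against day 7 (adjusted p = 0.000496).

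Kera, on chromosome 10 at 97606879 to 97613692, was nearly lost at day 3. It was at 29.0, 19.2, 22.0 and 23.0 CPM at day 0, and at 0.134, 0.564 and 0.0396 CPM at day 3, which came from 24 UMIs in all. It was at 10.3, 19.7, 24.7 and 12.1 CPM at day 7 and at 53.6, 53.1, 67.5 and 58.6 CPM at day 21. Its log2 fold change at day 3 was -6.08 ± 0.44 (adjusted p = 2.48e-06), the largest fall among the 7. It was not called at day 7 against day 0 (-0.31, adjusted p = 0.347) and was higher at day 21 by 1.46 ± 0.14 against day 0 (adjusted p = 4.06e-05) and by 1.77 ± 0.25 against day 7 (adjusted p = 0.000792).

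Egr2, on chromosome 10 at 67535475 to 67542188, was highest at day 3 and lower at day 7 and day 21 than at day 0. It was at 31.4, 31.5, 31.4 and 31.1 CPM at day 0 and at 36.5, 53.0 and 45.2 CPM at day 3, and then at 18.7, 8.98, 19.7 and 15.9 CPM at day 7 and 14.8, 16.6, 20.8 and 13.9 CPM at day 21. The 4 day 0 libraries were nearly equal, all day 3 libraries lay above them, and all day 7 and day 21 libraries lay below. Egr2 rose by 0.87 ± 0.13 at day 3 (adjusted p = 0.000189) and fell by 0.80 ± 0.21 at day 7 (adjusted p = 0.00751) and by 0.78 ± 0.12 at day 21 (adjusted p = 0.000413), each against day 0. Other immediate early genes, a list of 10 with 9 tested, were called higher in 0 and lower in 7 at day 3, with Egr1 at -1.50, Jun at -1.42, Ier2 at -1.23 and Fosb at -0.55.

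Egr2 transcripts lay mostly in monocyte/macrophage-like cells at day 3 and in several classes at day 0. At day 3, 74.6% of Egr2 UMIs lay in monocyte/macrophage-like cells (mean of n = 3), which held 52.4% of all UMIs, and 17.9% lay in stromal-like cells. At day 0, 31.0% of Egr2 UMIs lay in stromal-like cells, which held 39.6% of all UMIs, and 24.3% lay in Schwann-like cells, which were 3.14% of cells and held 2.51% of all UMIs. Egr2 was at 310 ± 65.1 CPM in Schwann-like cells at day 0 (SD, n = 4), at 20.5 ± 16.2 CPM at day 7 (n = 3 libraries with at least 10 such cells) and at 147 ± 74.8 CPM at day 21 (n = 4). In monocyte/macrophage-like cells it was at 43.8 ± 15.8 CPM at day 0, 64.0 ± 13.1 CPM at day 3, 27.1 ± 8.57 CPM at day 7 and 19.2 ± 7.12 CPM at day 21.

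**Figure D2:**
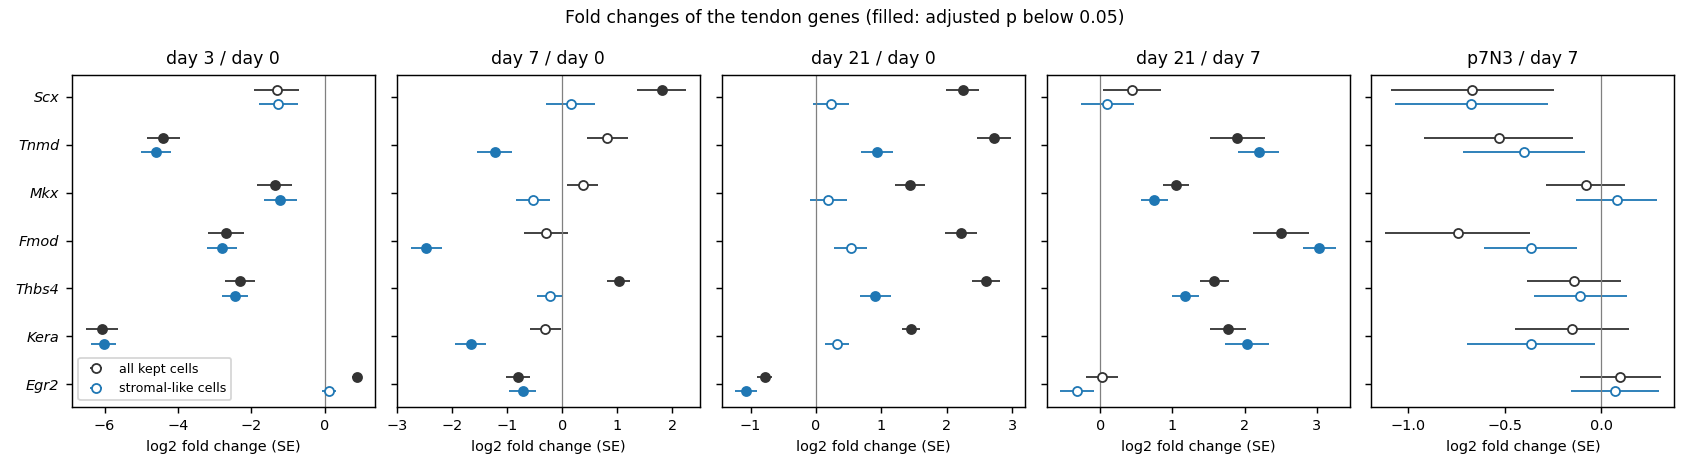
Log2 fold changes with SE from edgeR for the 7 tendon genes in 5 comparisons, in all kept cells (black) and in stromal-like cells (blue); filled points have an adjusted p under 0.05. Kera and Tnmd have the lowest points at day 3 against day 0, and no point is filled for p7N3 against day 7.

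In stromal-like cells, where the share of those cells at the site does not enter, the fall at day 3 was close to that over all cells. In these sums 5 of the 7 genes fell and 0 rose at day 3, beside 33.4% of 10682 genes called higher and 32.7% lower. Tnmd was at 157.2, 439.2, 310.4 and 366.1 CPM at day 0 and at 10.1, 18.4 and 5.39 CPM at day 3 (-4.61 ± 0.40, adjusted p = 1.30e-06). Kera was at 67.8, 55.7, 46.7 and 62.1 CPM at day 0 and at 0.425, 1.485 and 0.131 CPM at day 3 (-6.03 ± 0.34, adjusted p = 4.18e-08). Fmod and Thbs4 were lower by -2.81 ± 0.41 (adjusted p = 7.74e-05) and -2.44 ± 0.36 (adjusted p = 7.64e-05). Their day 3 libraries, like those of Tnmd and Kera, lay below every day 0 library, where 32.7% of all genes were called lower. Mkx was lower by -1.21 ± 0.44 (adjusted p = 0.0289), a call that was lost without day 0 replicate 2, day 0 replicate 4 or day 3 replicate 3, with an adjusted p of up to 0.102. Scx was at -1.27 ± 0.54 (adjusted p = 0.0535) and passed without day 0 replicate 1 or day 3 replicate 2, and Egr2 was at 0.12 (adjusted p = 0.592).

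Different clusters made up the stromal-like cells of these groups. At day 0, 68.9% of them were in cluster 17 and 19.6% in cluster 21. At day 3, 92.7% were in cluster 20, of whose day 3 cells 49.4% held a UMI of the leukocyte gene Ptprc, against at most 1.06% in the day 0 clusters 2, 17 and 21. These shares were not taken at a common depth. The median cell held 35335 UMIs in cluster 20 at day 3 and 5019 to 6070 UMIs in those day 0 clusters. The 9 macrophage markers together were at 481.4 to 651 CPM in the stromal-like sums of day 3 and at 60.1 to 99.4 CPM in those of day 0, and their part in the day 3 result was not tested. With cells holding Ptprc left out, an alternative chosen after the data were seen, 5 genes were called lower and 0 higher at day 3. At a finer clustering resolution of 2 only 71 of the 827 stromal-like cells of day 3 remained in that class. Other named classes, neither chondrocyte-like nor monocyte/macrophage-like, took up 756 of them. Of the 6 genes that could then be tested, 4 were called lower. The share of all genes called is not given for either alternative.

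At day 7 the values within stromal-like cells turned on the C1qtnf3 cluster. Without it 4 of the 7 genes were lower than at day 0 and 0 higher, beside 27.4% of 12393 genes called higher and 25.6% lower. Fmod was at 262.8, 678.7, 639.1 and 609.9 CPM at day 0 and at 64.2, 124.8, 111.7 and 78.2 CPM at day 7 (-2.47 ± 0.29, adjusted p = 2.36e-05). Kera was at 12.3, 17.9, 29.5 and 11.0 CPM at day 7 (-1.67 ± 0.28, adjusted p = 0.000362), and for both genes all day 7 libraries lay below all day 0 libraries. Both calls held with the cluster added, at -1.19 for Fmod (adjusted p = 0.0112) and -1.14 for Kera (adjusted p = 0.00138).

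Tnmd was at 118, 162.4, 172.4 and 63.6 CPM in the stromal-like cells of day 7, which overlapped day 0 replicate 1, and was lower by -1.23 ± 0.32 (adjusted p = 0.00627). With the C1qtnf3 cluster added it was at -0.04 (adjusted p = 0.938), with another clustering seed at -0.02 (adjusted p = 0.971) and with a gate on Col1a2 in place of clusters at 0.04 (adjusted p = 0.935). Scx was at 29.5, 96.4, 33.5 and 55.5 CPM at day 0 and at 16.6, 70.4, 78.3 and 48.8 CPM at day 7, with overlapping ranges and a difference of 0.15 ± 0.44 (adjusted p = 0.797). With the cluster added Scx was higher by 1.13 (adjusted p = 0.0304), with another seed by 1.14 (adjusted p = 0.0291) and with the gate by 1.3 (adjusted p = 0.0206). A fall of Tnmd and a rise of Scx inside the stromal compartment at day 7 were thus each called under one definition of its cells and not under another. Egr2 was lower by -0.72 ± 0.24 (adjusted p = 0.0249), a call lost without day 0 replicate 1 or day 0 replicate 3, with replicates 1 to 3 only and without the cells of highest doublet score, with an adjusted p of up to 0.116. Mkx and Thbs4 differed by -0.53 and -0.23, with adjusted p of 0.175 and 0.404. The day 7 stromal-like cells were spread over clusters 2 (28.2%), 19 (16.7%), 18 (14.8%) and 21 (11.8%).

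The C1qtnf3 cluster held most transcripts of Scx and Tnmd at day 7. With 21.2% of all UMIs of the day 7 libraries it held 64.5% ± 6.71 of Scx UMIs (SD, n = 4), 65.0% ± 12.0 of Tnmd UMIs, 64.3% of Fmod UMIs and 52.1% of Kera UMIs, while the stromal-like cells, with 39.3% of all UMIs, held 31.0% of Scx and 29.4% of Tnmd UMIs. Scx was at 149, 280.3, 168.4 and 205.2 CPM in the cluster at day 7, and Tnmd at 462.8, 873.2, 578.8 and 425.7 CPM. Every one of these values lay above those of the stromal-like cells of all 4 day 7 libraries. At day 21 the cluster had Scx at 186 ± 42.9 CPM and Tnmd at 1381 ± 470 CPM and held 16.6% of Scx and 15.2% of Tnmd UMIs, with 8.62% of all UMIs. With p7N3 it had Scx at 195.6 ± 42.6 CPM and Tnmd at 631 ± 134 CPM and held 61.6% and 64.4% of their UMIs. Since Scx and Tnmd are among the leading genes of the cluster, these values are a description, although neither gene was used to form it.

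At day 21 the stromal-like cells held more Tnmd and Thbs4 and less Egr2 than at day 0, beside 16.7% of 10715 genes called higher and 17.3% lower. Tnmd was at 443.8, 748.5, 583.3 and 533.1 CPM at day 21 (0.93 ± 0.25, adjusted p = 0.0124), all above the day 0 libraries. Thbs4 was at 887.5, 1477, 983.8 and 906.4 CPM against 380.1, 941, 494.8 and 577.8 CPM at day 0 (0.91 ± 0.23, adjusted p = 0.0101), and day 0 replicate 2 overlapped the day 21 range. Egr2 was lower by -1.07 ± 0.16 (adjusted p = 0.000414). Scx, Mkx, Fmod and Kera differed by 0.23, 0.19, 0.53 and 0.33, with adjusted p of 0.565, 0.645, 0.12 and 0.2. With the C1qtnf3 cluster added, 5 genes were called, the additional ones being Fmod at 0.70 (adjusted p = 0.0375) and Kera at 0.51 (adjusted p = 0.00454), and Scx was at 0.74 (adjusted p = 0.0507).

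Against day 7, 5 of the 7 genes were higher in stromal-like cells at day 21 and 0 lower, beside 19.0% and 18.5% of 12888 genes. These were Fmod (3.03 ± 0.23, adjusted p = 7.63e-05), Tnmd (2.19 ± 0.29, adjusted p = 0.000557), Kera (2.03 ± 0.30, adjusted p = 0.00105), Thbs4 (1.17 ± 0.19, adjusted p = 0.0014) and Mkx (0.75 ± 0.19, adjusted p = 0.0118). The day 21 libraries of Fmod, Tnmd, Thbs4 and Kera lay above those of day 7, in a comparison that called 19.0% of all genes higher. All 5 calls held in all 25 alternatives, and with the C1qtnf3 cluster added the differences were 1.90 for Fmod, 1.28 for Tnmd, 1.66 for Kera, 0.87 for Thbs4 and 0.62 for Mkx. Scx was not among them, at 0.10 (adjusted p = 0.86) without the cluster and -0.39 (adjusted p = 0.364) with it. Cluster 2, led by Sfrp4, Col14a1 and Mfap4, held 66.8% of the stromal-like cells of day 21.

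On average most Scx and Tnmd transcripts of day 21 lay in chondrocyte-like cells, 786 cells named from cartilage markers, of which 0 were found at day 0, 65 at day 7 and 708 at day 21. They were 11.8% of day 21 cells and held 21.7% of all UMIs, but 59.9% ± 8.43 of Scx UMIs (SD, n = 4), 52.8% ± 13.2 of Tnmd UMIs, 43.7% ± 9.61 of Mkx UMIs and 36.4% of Kera UMIs. Stromal-like cells, with 37.5% of all UMIs at day 21, held 22.0% of Scx UMIs and 30.5% of Tnmd UMIs. At day 0 the stromal-like cells had held 85.5% of Scx UMIs and 96.4% of Tnmd UMIs. Scx was at 267 ± 22.6 CPM in the chondrocyte-like cells of day 21 (237.1 to 289.2, n = 4) and at 55.4 ± 9.72 CPM in the stromal-like cells of the same libraries, and the ranges did not overlap. Tnmd was at 1799 ± 312 CPM against 577 ± 128 CPM, Fmod at 2372 ± 66.6 CPM against 756 ± 158 CPM, and Thbs4 at 3160 ± 539 CPM against 1064 ± 279 CPM. These values are a description, since both classes are cells of the same libraries, and Fmod, Tnmd and Thbs4 are among the leading genes of the chondrocyte-like cluster. Stromal-like cells of day 0 with UMIs of 2 or more of the 7 genes had higher means (SD, n = 4). In them Scx was at 513 ± 202 CPM, Tnmd at 2990 ± 974 CPM and Fmod at 5649 ± 1872 CPM. Thbs4 was at 5017 ± 1660 CPM, Kera at 691 ± 377 CPM and Mkx at 83.8 ± 25 CPM. Day 21 stromal-like cells chosen in the same way had Scx at 125 ± 16.9 CPM and Tnmd at 1314 ± 224 CPM (SD, n = 4). Fmod was there at 1825 ± 302 CPM and Thbs4 at 2159 ± 474 CPM. Kera was at 179 ± 55.1 CPM and Mkx at 19.7 ± 4.21 CPM. Cells of both days were chosen by these genes, and the differences were not tested. In cluster 2, formed without these genes, Scx was at 486 ± 177 CPM at day 0 and 51.7 ± 10.2 CPM at day 21. Kera was at 544 ± 178 CPM and 98 ± 25.7 CPM there. At day 7 replicate 2 alone held at least 10 chondrocyte-like cells, 54 of them, with 252 CPM of Scx and 834 CPM of Tnmd. The class was named by cluster and not cell by cell. With UMIs drawn at random down to 1500 a cell, 56.2% of the day 21 chondrocyte-like cells held Acan and 22.3% Sox9. Col2a1 was in 17.9% of them, Hapln1 in 10.5% and Col9a1 in 8.62%. Fmod was in 91%, Thbs4 in 82.6%, Tnmd in 74%, Scx in 28.5%, Kera in 8.33% and Mkx in 2.97%.

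**Figure D3:**
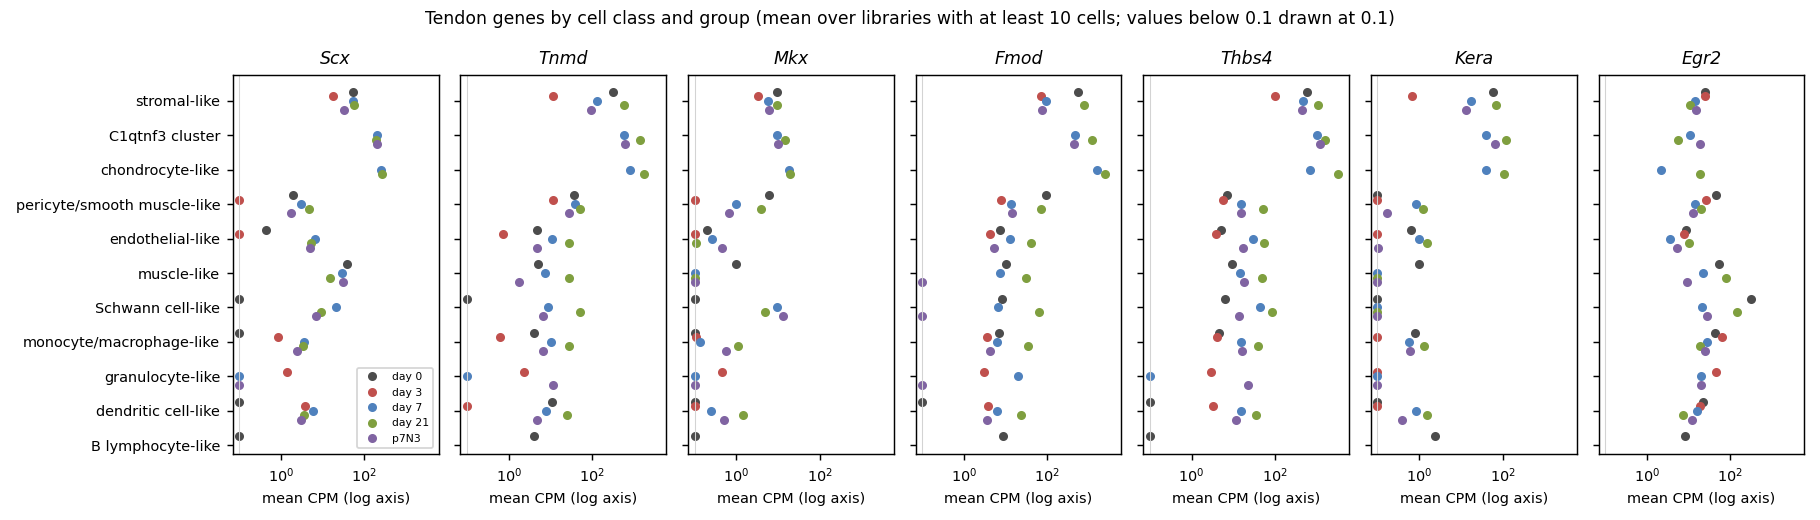
Mean CPM of the 7 tendon genes, on a log axis, by cell class and group, over libraries with at least 10 cells of the class; means below 0.1 are drawn at 0.1. At day 21 the chondrocyte-like cells stand above the stromal-like cells in all 7 genes, the C1qtnf3 cluster stands between them in Scx, Tnmd, Mkx, Fmod and Thbs4, and Egr2 stands highest in Schwann-like cells at day 0.

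The limit between these classes decides part of the day 21 values as well. At a resolution of 2, 23.4% of the day 21 stromal-like cells with UMIs of 2 or more of the genes were named chondrocyte-like, and none of the 78 such cells of day 0. When chondrocyte-like cells were added to the stromal-like cells, 7 of the 7 genes were called at day 21 against day 0, and the same number was called with the gate on Col1a2. Egr2 was lower each time. The share of all genes called under these alternatives is not given here. The stromal-like comparison of day 21 with day 0 thus leaves out classes that had no counterpart at day 0 under the clustering used.

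Co-expression within cells was measured on cells from which UMIs were drawn at random down to 1500 a cell, since the median stromal-like cell held 4308 to 6326 UMIs at day 0 and 33187 to 41123 at day 3. This left out 70 of the 11008 stromal-like cells, all of day 0. UMIs of 2 or more of the 7 genes were found in 4.35%, 7.89%, 8.85% and 5.70% of the stromal-like cells in the 4 day 0 libraries and in 3.15%, 8.68% and 1.04% in the 3 day 3 libraries. The shares were 7.61%, 12.9%, 11.7% and 9.50% at day 7, 23.3%, 29.5%, 31.4% and 27.8% at day 21, and 6.10%, 10.8%, 8.54% and 7.45% with p7N3. Every day 21 library lay above every other library, and the day 0 and day 7 ranges overlapped.

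The mean share was higher at day 21 than at day 0 by 21.3 percentage points and than at day 7 by 17.6 percentage points (exact two-sided permutation tests, p = 0.02857 each, adjusted p = 0.0571 over 4 comparisons). This is the smallest p that 4 against 4 libraries can give, and neither passed after adjustment. Day 7 was above day 0 by 3.74 percentage points (exact permutation p = 0.0857, adjusted p = 0.114). In the C1qtnf3 cluster the share was 40.5%, 59.5%, 39.0% and 49.5% in the 4 day 7 libraries, all above every stromal-like library of the series, and 73.9% ± 3.23 at day 21. With the cluster added to the stromal-like cells, day 7 stood above day 0 by 16.3 percentage points with no overlap of libraries (exact permutation p = 0.02857, adjusted p = 0.0571), and day 21 above day 7 by 10.6 percentage points with overlap (exact permutation p = 0.0857). In the chondrocyte-like cells of day 21 the share was 89.9% ± 4.91 (82.7% to 93.8%, n = 4).

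Monocyte/macrophage-like cells should lack the tendon genes other than Egr2, which is also known from myeloid cells. The mean share of these cells with 2 or more of the other 6 genes was 0.272% at day 0, 0 at day 3, 0.191% at day 7 and 1.42% at day 21, against 6.27%, 4.11%, 9.73% and 27.8% of stromal-like cells. With Egr2 counted, the share of monocyte/macrophage-like cells was 0.272% at day 0, 0.142% at day 3, 0.372% at day 7 and 1.76% at day 21. Their median cell held 2940.5 to 4324, 9584 to 10122, 4322.5 to 5870 and 7105 to 8305 UMIs at these times before thinning. Without thinning, the stromal-like shares were 12.1% at day 0, 42.2% at day 3, 44.8% at day 7 and 65.7% at day 21, and the differences of day 7 and day 21 from day 0 then passed (adjusted p = 0.0381, exact permutation). For day 21 the unadjusted p, 0.02857, was the same as with thinning. Its adjusted p passed only because day 7 against day 0 reached that smallest p as well.

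**Figure D4:**
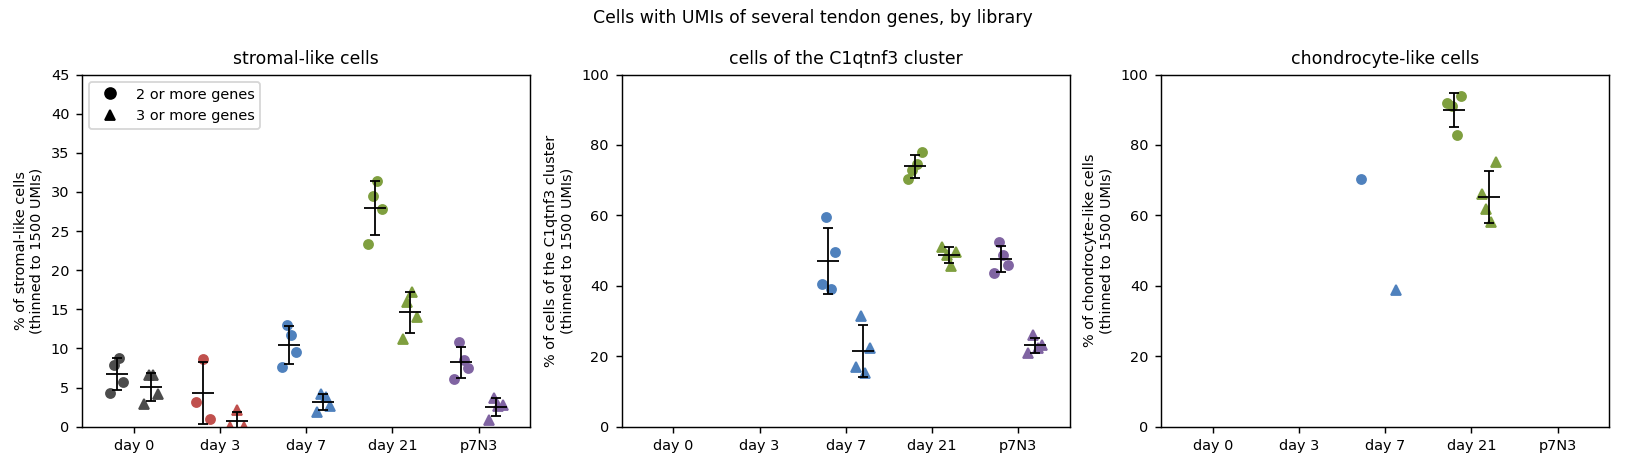
Percent of cells, thinned to 1500 UMIs, with UMIs of 2 or more (circles) and 3 or more (triangles) of the 7 tendon genes, by library and group, with mean and SD, in stromal-like cells (left), the C1qtnf3 cluster (middle) and chondrocyte-like cells (right), with libraries of at least 10 cells of the class drawn and another scale on the left axis. Stromal-like libraries of day 21 lie between 23.3% and 31.4% with 2 or more genes and all other stromal-like libraries under 13%, and chondrocyte-like libraries of day 21 lie between 82.7% and 93.8%.

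Tnmd, Fmod and Thbs4 transcripts were held by fewer stromal-like cells at day 0 than at day 21, on cells thinned to 1500 UMIs. The 5% of stromal-like cells with most Tnmd transcripts held 87.4% ± 8.47 of Tnmd UMIs at day 0, 74.7% ± 11.7 at day 7 and 46.5% ± 7.32 at day 21 (SD, n = 4 each). For Fmod these shares were 95.4% ± 4.21, 79.0% ± 8.07 and 60.3% ± 8.48, and for Thbs4 86.0% ± 2.97, 52.0% ± 6.28 and 46.7% ± 2.64. The day 0 libraries lay above the day 21 libraries for all 3 genes, while the day 0 and day 7 libraries overlapped for Tnmd. With the C1qtnf3 cluster added, the day 7 shares were 61.4% for Tnmd, 55.3% for Fmod and 41.9% for Thbs4, all libraries then below those of day 0. The other 4 genes had UMIs in too few thinned cells for this measure, and these shares were not tested. Where a stromal-like cell had 2 or more of the genes, it had 3 or more in 74.6% ± 6.85 of cases at day 0, in 29.2% ± 3.47 at day 7 and in 51.9% ± 3.14 at day 21 (SD, n = 4 each), so the day 0 libraries lay above the others. With the C1qtnf3 cluster added these shares were 40.0% ± 6.36 at day 7 and 55.3% ± 2.00 at day 21. Counted as cells with 3 or more genes, stromal-like cells of day 7 stood below those of day 0 by -1.96 percentage points (exact permutation p = 0.114).

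Scx, Tnmd, Thbs4 and Kera each had their highest mean share of stromal-like cells at day 21 among day 0, day 3, day 7 and day 21, on cells thinned to 1500 UMIs. Scx UMIs were in 1.93% of stromal-like cells at day 0, 2.19% at day 3, 3.72% at day 7 and 5.49% at day 21, and in 20.8% of the cells of the C1qtnf3 cluster at day 7. Tnmd UMIs were in 8.95%, 1.62%, 9.66% and 28.3% of the stromal-like cells at these times, and Thbs4 UMIs in 12.3%, 9.20%, 25.3% and 37.9%. Kera UMIs were in 3.02%, 0.0877%, 1.41% and 4.62%. Fmod UMIs were in 7.71%, 7.5%, 7.83% and 27.2% of the stromal-like cells pooled over libraries, also highest at day 21. Mkx did not share this order, with 1.12% of stromal-like cells at day 0, 0.787% at day 3, 0.766% at day 7 and 1.11% at day 21. The share of stromal-like cells with Egr2 was highest at day 0, at 3.47%, and lowest at day 21, at 1.36%.

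The co-expressing cells lay in few clusters. At day 0, cluster 2 held 54 of the 78 stromal-like cells with 2 or more of the genes, which were 58.7% of its 92 thinned cells, and the larger cluster 17 had 16 such cells among 808. At day 7 the C1qtnf3 cluster held 976 such cells among its 1984, 68.5% of all co-expressing cells of the stromal-like, C1qtnf3 and chondrocyte-like clusters together, and cluster 19, led by the division genes Cdk1 and Cdc20, held 145 among 632. At day 21 cluster 2 had such cells in 452 of 1305, the C1qtnf3 cluster in 203 of 270 and the chondrocyte-like cluster in 650 of 708.

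Pairs of genes were then set against the number of cells expected to hold both if the genes were drawn independently within a library. Scx and Tnmd were found together in 18 of the 20 stromal-like day 0 cells with Scx, 9.21 times the expected number, in 49 of 146 cells at day 7 (3.27 times) and in 68 of 103 cells at day 21 (2.33 times), above the expected number in 4 of 4 libraries each time. Within the C1qtnf3 cluster they were together in 177 of 431 day 7 cells with Scx, 1.23 times the expected number and again above it in 4 of 4 libraries. Among the 15 pairs without Egr2 the ratio was above 1 in 15 pairs at day 0, at day 7 and at day 21, with medians of 8.63, 3.27 and 2.70. Mkx and Kera had the highest ratio of day 21, 10.3 from 10 cells. At day 3, 7 of these 15 pairs were above 1 and most rested on few cells. The 6 pairs with Egr2 ran from 0 to 2.12 at day 0, day 7 and day 21, and none was above the expected number in every library. The ratios are given as descriptions, since cells of a library also share clusters. A ratio also has an upper limit, which is lower where a gene is in more cells. Tnmd was in 9.17% of these stromal-like cells at day 0, 9.89% at day 7 and 27.9% at day 21. Ratios of different days or classes of cells are therefore not read as a change in co-expression.

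**Figure D5:**
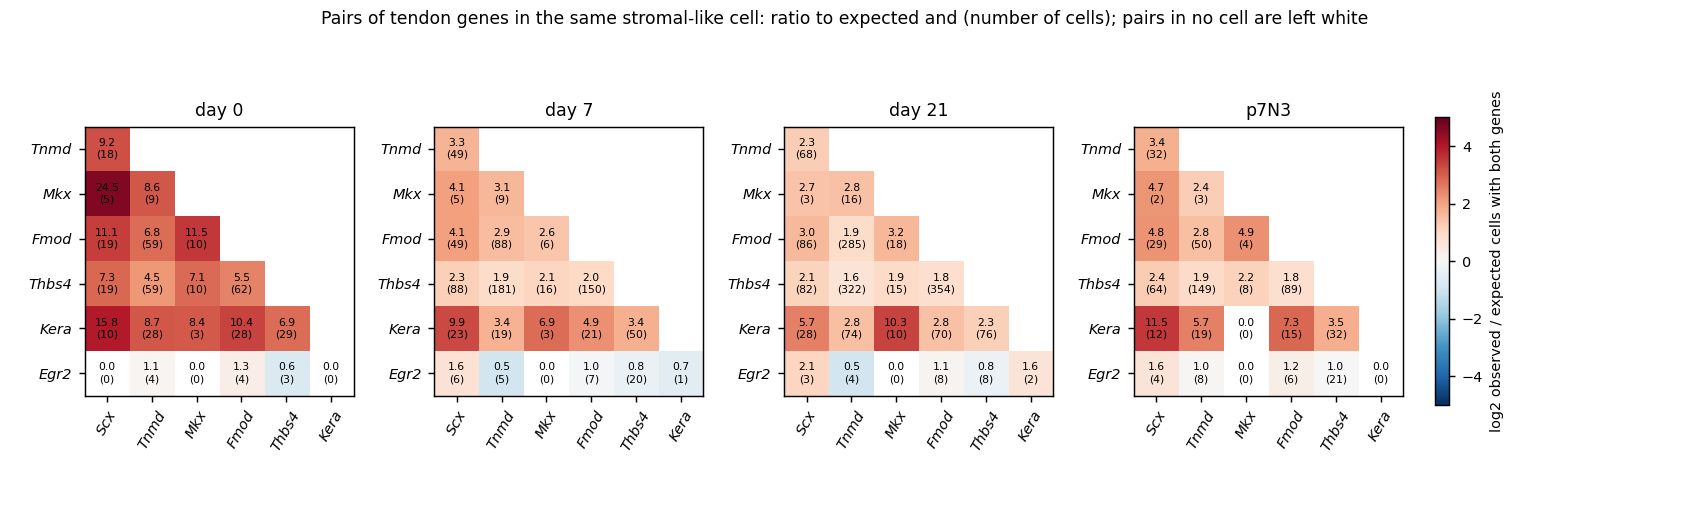
Ratio of observed to expected stromal-like cells (thinned to 1500 UMIs) with UMIs of both genes of a pair, coloured on a log2 scale, with the ratio and the number of cells in each square, for day 0, day 7, day 21 and p7N3. The 15 pairs without Egr2 are above 1 in every panel but 1 pair that no p7N3 cell held, and the Egr2 pairs lie from 0 to 2.12. The upper limit of a ratio is lower where a gene is in more cells.

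Of the cartilage genes paired, Acan was the one most often found beside Scx in stromal-like cells at day 7 and day 21. At day 0 few cells held a cartilage gene beside a tendon gene. Of the 146 stromal-like day 7 cells with Scx, 44 also held Acan (aggrecan, the main cartilage proteoglycan), 3.85 times the expected number, and 18 of the 103 day 21 cells did (2.89 times), above expected in 4 of 4 libraries each. In the C1qtnf3 cluster 161 of the 431 day 7 cells with Scx held Acan, 1.26 times the expected number. No thinned stromal-like cell of day 0 held Acan. Of the stromal-like day 7 cells with Scx, 1 held Col2a1, 4 Col9a1 and 3 Hapln1 (2.52, 9.53 and 7.44 times the expected number). At day 21 Acan stood below the expected number with Kera (0.509 times) and Mkx (0.842 times). It stood above that number with Tnmd (1.7 times), Fmod (1.99 times) and Thbs4 (1.65 times). Sox9, the cartilage transcription factor, stood with Scx in 5 stromal-like cells of day 7, 0.498 times the expected number, and in 49 cells of the C1qtnf3 cluster (0.906 times). At day 21 Sox9 stood with Scx in 8 stromal-like cells, 1.38 times the expected number and above it in 2 of 4 libraries. At day 0 Sox9 stood with Thbs4 in 10 cells (1.41 times), with Tnmd in 2 (0.371 times) and with Scx in 0. Col2a1 stood with Thbs4 in 3 day 0 cells (5.69 times). Inside the chondrocyte-like cells of day 21 several pairs of a tendon gene with a cartilage gene ran low. Thbs4 and Col9a1 were together in 23 cells where 49.5 were expected (0.465 times), and Thbs4 and Col2a1 stood at 0.723 times, each above expected in 0 of 4 libraries. Scx stood at 0.575 times with Col9a1, 0.701 with Hapln1, 0.75 with Sox9 and 0.831 with Col2a1, but at 1.01 with Acan. Tnmd stood at 0.8 times with Col9a1 and 0.986 with Acan. Scx and Tnmd stood with each other at 1.11 times.

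Other tendon genes were compared between stromal-like cells with UMIs of 2 or more of the 7 genes and cells of the same library with none, in the 17 libraries with at least 10 cells of each. Of a list of 32 tendon matrix genes, 11 were higher in the co-expressing cells in 17 of 17 libraries and 0 were lower in all of them, and the median log2 ratio over the list was 0.80. Of all 11634 genes with a UMI in these cells in every library, 1.26% were higher and 1.96% lower in 17 of 17, with a median of -0.06. Among these genes were 30 of the 32 matrix genes, whose median was 0.69. None of these differences was tested. The lists were chosen with earlier results of these data known and the cells by the 7 genes, so these values are a description. Cilp2 stood at a median log2 ratio of 5.00 and was higher in 16 of 17 libraries, and Chad (chondroadherin) stood at 4.25 and was higher in 15. Col11a1 at 2.32, Cilp at 2.11, Comp at 2.07, Cpxm2 at 1.62 and Aspn at 1.16 were higher in 17 of 17. The main tendon collagen genes Col1a1 and Col1a2 were also higher in 17 of 17, at 0.61 and 0.48. Clec3b, at -1.13, was higher in 1 of 17 libraries. Col14a1 at -0.66 was higher in 2, and Col3a1 at -0.13 and Col6a3 at -0.15 were higher in 5 each. Of a list of 20 tendon regulators, of which 15 had a UMI in every library, 1, Tgfb3 at 0.81, was higher in all 17 libraries. Of 9 cartilage genes, 0 were higher in all 17 libraries, but only 4 had a UMI in every library. The median log2 ratio of the cartilage list was 1.44, and 1.02 over those 4 genes, above that of the tendon matrix list each time. Of 10 immediate early genes, 0 were higher in all 17, with a median of -0.34, and of -0.37 over the 9 with a UMI in every library. Co-expressing cells were also the deeper ones in most libraries before thinning, with medians of 15627 to 17063 UMIs against 8712 to 10742 at day 21, and the part of depth in these ratios was not tested. The share of cells among the top 3.9% of Scrublet doublet scores was higher in co-expressing cells than in cells with none in 15 of 17 libraries, at 0 to 14.4% against 0 to 6.63%, and its part in these ratios was not tested. With those cells left out, the share of stromal-like cells with 2 or more genes still stood higher by 3.50 percentage points at day 7 and by 20.9 at day 21 than at day 0.

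The 2 lists were also counted over all cells of the site. Of the 32 tendon matrix genes, all tested, 6 were called higher and 19 lower at day 3 against day 0, 18 and 8 at day 7, and 23 and 3 at day 21, with median log2 fold changes of -1.07, 0.86 and 1.40. Against day 7, 19 were higher and 1 lower at day 21. At day 3 Tnc (tenascin C) was higher by 3.43, Lox (lysyl oxidase) by 2.75 and Prg4 (lubricin) by 3.66, and Ptx4, Cilp2, Angptl7 and Clec3b were lower by -8.13, -6.93, -5.52 and -5.46 on the log2 scale. Cilp2 and Chad were still lower at day 7, by -4.90 and -6.12, while Tnc, Col12a1 and Col11a1 were higher by 5.47, 4.06 and 3.50. Chad and Cilp2 were higher at day 21 than at day 7, by 6.39 and 5.80, and Tnc was lower by -1.18. Among the regulators tested (15, 17 and 18 of 20), 2 were called higher and 9 lower at day 3, 3 and 6 at day 7, and 7 and 4 at day 21, each against day 0. Bmp4 was lower each time, at -3.92, -3.14 and -1.74, and so was Egr1, at -1.50, -1.27 and -0.84. Sox9 was higher at day 7 by 2.19 and at day 21 by 2.63, Tgif1 was higher at day 3 by 2.48, and Tgfb3 was higher at day 21 by 0.88. Egr1 and Sox9 also stand on the immediate early and cartilage lists.

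For p7N3 against day 7, 0 of the 7 tendon genes were called over all cells, and 0 passed at an unadjusted p under 0.05. Of the 14882 genes tested, 0 were called higher and 0 lower with edgeR, 1827 had an unadjusted p under 0.05, and DESeq2 called 139 genes with none of the 7 among them. Scx was at 31.3, 60.7, 51.6 and 31.8 CPM with p7N3, inside the day 7 range (-0.67 ± 0.42, adjusted p = 0.564). Tnmd was at 87.5, 194.1, 119.3 and 139.8 CPM (-0.53 ± 0.39, adjusted p = 0.616). Fmod was at 75.3, 120.0, 83.2 and 100.8 CPM (-0.74 ± 0.38, adjusted p = 0.462). Thbs4, Kera, Mkx and Egr2 differed by -0.14, -0.15, -0.08 and 0.10, with adjusted p of 0.846 to 0.902. The 2 groups overlapped in all 7 genes, whereas 2.95% of all genes had CPM that did not overlap and were higher with p7N3 and 3.45% were lower. In stromal-like cells 0 of the 7 were called, beside 0 of 13083 genes higher and 0 lower, and the largest difference was that of Scx, -0.67 ± 0.40 (adjusted p = 0.613). With the C1qtnf3 cluster added, 0 of the 7 were called as well, with Fmod at -0.57 (adjusted p = 0.385) and Scx at -0.55 (adjusted p = 0.484). The SE of 0.38 to 0.42 for Scx, Tnmd and Fmod over all cells limits the difference that these libraries could show, and a p above the threshold does not show that the groups were alike. The share of stromal-like cells with UMIs of 2 or more of the genes was lower with p7N3 by -2.23 percentage points, with an exact permutation p of 0.171 (adjusted p = 0.171), and by -5.40 percentage points with the C1qtnf3 cluster added (exact permutation p = 0.343). Scx and Tnmd were together in 32 of 98 stromal-like cells with Scx under p7N3, 3.43 times the expected number, and in 100 of 213 cells of the C1qtnf3 cluster (1.46 times).

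Across the 19 stromal-like sums the levels of the 6 genes without Egr2 ran together, with Pearson correlations of log2(CPM + 1) from 0.621 for Scx and Fmod to 0.962 for Tnmd and Kera. Egr2 correlated with them at -0.475 to -0.170. The sums share groups, library depth and stromal clusters, so these values describe the course over groups and carry no p. Among the 7987 genes with a mean of at least 10 CPM, those most like Tnmd were Cpxm2 (0.982), Atraid (0.979) and Ctsf (0.978), and those most like Thbs4 were Pdgfrl (0.973), Ssc5d (0.958) and Aspn (0.957). Scx was most like Zfp185 (0.88), Bphl (0.861) and Arl6ip1 (0.84). Fmod was most like Cers4 (0.956), Cst3 (0.952) and Mxra7 (0.952). Kera was most like Ctsf (0.979), Tmem50a (0.977) and Zfr (0.973), Mkx like Zfp185 (0.903), Clcn4 (0.882) and Slc2a8 (0.872), and Egr2 like Csrnp1 (0.923), Nr4a1 (0.897) and Spty2d1 (0.885).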

How the data were processed

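The authors prepared droplet 3′ libraries of cells digested from the tenotomy site and counted reads with Cell Ranger, and the deposited matrices hold UMI counts per gene and barcode without normalization. The submitters' processing notes name Cell Ranger, Seurat and the builds mm10 and GRCh38, and the files hold mouse gene identifiers. Groups were taken from the labels. The 7 genes and the gene lists were chosen with earlier results of these data known.

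Barcodes with under 500 genes or over 25% mitochondrial UMIs were removed, and libraries held 3019467 to 39870492 UMIs. Day 0 replicate 1 was deposited with 737280 barcodes and the other libraries with 614 to 3786. Its 1003 cells were thus set by this filter alone, and an older Cell Ranger rule, run as an alternative, kept 943. Libraries shared 0 to 22 barcodes in pairs. Clusters came from leidenalg 0.10.2, run through scanpy 1.11.5 (2000 variable genes without the 7 genes and the tendon lists, 30 principal components, 20 neighbours, resolution 0.8, unnamed clusters split once at 0.3), which gave 45 clusters, named "-like" from marker lists. A cluster with more markers of another class than of its own among its 10 leading genes was not named, which left 3856 cells unnamed, 3277 of them in the C1qtnf3 cluster. The clustering was run several times with these settings while it was made reproducible. The C1qtnf3 cluster had been named stromal-like in the earlier runs, whose results were known, and the naming rule was kept as it stood. No doublets were removed, since automatic Scrublet calls marked 0.465% of cells and had not worked. Removal of the top 3.9% of scores was an alternative.

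UMIs were summed over all kept cells, or over the stromal-like cells, of a library with at least 10 such cells, and edgeR 4.0.16 was fitted to 2 groups at a time (its quasi-likelihood test, TMM factors, filterByExpr, Benjamini-Hochberg over all genes tested, threshold 0.05). SEs are of the log2 fold change. CPM in the text are relative to the UMIs summed, without TMM factors. Shares of cells were compared by exact permutation over libraries. Day 3, with 3 libraries, entered no such test. On simulated data, 200 genes were changed 2-fold and the steps were tested. In the day 7 against day 0 comparison of all cells, 57.0% of these were recovered among 14039 genes and 5.79% of calls were false. Over all comparisons simulated, 57.0% to 78.0% were recovered and 3.18% to 7.19% of calls were false. The highest share of false calls was that of stromal-like cells at day 7 against day 0.

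All 7 genes were named in every comparison. From each list, up to 4 called genes per direction with the largest change and at least 10 CPM in the higher group could be named, and genes compared between cells with and without co-expression were named after their values were seen. Alternatives were DESeq2 1.42.0, other normalizations, filters on genes and cells, cell definitions, thinning depths, a block for the replicate number, fits without each library in turn, and replicates 1 to 3 only. Most numbers of tendon genes called under alternatives are given without the share of all genes called, so they are not set against it. The C1qtnf3 cluster added to the stromal-like cells, another clustering seed and the removal of cells with Ptprc were alternatives chosen after the data were seen. R 4.3.3, Python 3.11.15, numpy 2.4.6, scipy 1.17.1 and pandas 2.3.3 were used. Reads and genotypes were not analysed here, and 1 item is not reported here.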

Additional observations from a re-analysis of the deposited data

Results flagged for a closer look

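Of 64 groups of 4 libraries tested for a single library far from the others by Dixon's test, 2 were picked out, and chance picks out about 5% of groups. Fmod in the stromal-like cells of day 0 replicate 1 was at 262.8 CPM against 678.7, 639.1 and 609.9 CPM in the other day 0 libraries. Its difference at day 7 against day 0 in stromal-like cells ran from -2.68 to -2.34 on the log2 scale over all fits with 1 library left out, and was called in each. Thbs4 in the stromal-like cells of day 21 replicate 2 was at 1477 CPM against 887.5, 983.8 and 906.4 CPM, and the Thbs4 calls at day 21 in these cells held in all alternatives run.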

How the results depend on the processing

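Of 38 calls of single tendon genes, 34 kept their direction and stayed past the threshold under all alternatives run, and 4 did not under at least 1, namely Mkx at day 3 over all cells and in stromal-like cells, and Tnmd and Egr2 at day 7 in stromal-like cells. The call of Tnmd at day 7 was lost with the C1qtnf3 cluster added, another clustering seed, the gene gate and a resolution of 2, and Scx was called there with the first 3 of these. Whether these cells belong to the stromal compartment was not tested. The numbers of genes called and the differences in shares stayed on their side of the threshold, or within 1.5 times, in 315 of the alternative values, and 11 did not. Among the 315 are tests of shares with 3 libraries in a group or within pairs. These could not pass the threshold whatever the values, so they say nothing on how firm the results are. At day 21 against day 0 in stromal-like cells, 7 genes were called with the gene gate and with chondrocyte-like cells added, 5 with the C1qtnf3 cluster added and 6 with another seed. The shares with 2 or more genes differed by 6.709 (day 7 against day 0), 27.62 (day 21 against day 0) and 20.91 percentage points (day 21 against day 7) when thinned to 2500 UMIs, and by 32.68, 53.56 and 20.88 without thinning, each past the threshold by exact permutation (adjusted p = 0.0381). The unadjusted p was 0.02857 each time, the smallest possible. Both day 21 comparisons had that p in the main setting too. Their adjusted p passed here only because day 7 against day 0 also reached it. With 3 or more genes the difference of day 7 against day 0 was -1.961. The cause was not tested.

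The direction turned in these log2 fold changes of stromal-like cells, most of them close to 0. At a resolution of 2, Scx was at 0.0897 and Egr2 at -0.0558 at day 3, Thbs4 at 0.0151 at day 7, and Scx at -0.000865 at day 21 against day 7. With the gene gate, Tnmd was at 0.038 and Thbs4 at 0.353 at day 7, Egr2 at 0.396 at day 21 against day 7, and Mkx at -0.0344 with p7N3. With the C1qtnf3 cluster added, Thbs4 was at 0.188 at day 7, Scx at -0.386 at day 21 against day 7 and Mkx at -0.0118 with p7N3, and with another seed these were 0.199, -0.182 and -0.0134. With replicates 1 to 3 only, Scx was at -0.101 at day 21 against day 7, and Mkx at -0.0812 and Egr2 at -0.0998 with p7N3. Egr2 was at -0.0189 with library totals at day 3, and over all cells at -2.98e-05 without the top Scrublet scores at day 21 against day 7.

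With 1 library left out, the direction turned over all cells for Egr2 at day 21 against day 7 (-0.169 to 0.139) and, with p7N3, for Mkx (-0.227 to 0.0514), Thbs4 (-0.351 to 0.0292), Kera (-0.384 to 0.0921) and Egr2 (-0.1002 to 0.214). In stromal-like cells it turned for Egr2 at day 3 (-0.00845 to 0.294), Scx (-0.111 to 0.511) and Thbs4 (-0.374 to 0.0353) at day 7, Scx (-0.00424 to 0.572) and Mkx (-0.00203 to 0.522) at day 21 against day 0, and Scx at day 21 against day 7 (-0.22 to 0.335). With p7N3 it turned there for Mkx (-0.0154 to 0.229), Thbs4 (-0.371 to 0.0756), Kera (-0.612 to 0.00392) and Egr2 (-0.121 to 0.236).

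With the replicate number as a block, 7, 4, 7, 5 and 0 genes were called over all cells and 6, 4, 4, 5 and 0 in stromal-like cells, in the order of the comparisons in the text. The differences in shares had an adjusted p of 0.125 each (exact permutation within pairs). This is the smallest p that 4 pairs can give, so that test could not pass. Same-numbered libraries deviated together with correlations of -0.176 to 0.323, and in 0 comparisons were all pairs over 0.1. The highest value was that of replicate 4 at day 21 and day 7 in stromal-like cells. Whether some same-numbered libraries share more than a number, such as a batch, was not tested. Depth limits Mkx and, at day 3, Kera. A library of day 0 had as few as 3019467 UMIs.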

Other observations

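Some transcripts of the tendon genes lay in other classes of cells. At day 0, muscle-like cells (267 cells) held 13.7% of Scx UMIs, with Scx at 39.3 ± 19.0 CPM (SD, n = 4 libraries, 52 UMIs) and Tnmd at 5.19 ± 3.93 CPM. In pericyte/smooth muscle-like cells Tnmd was at 36.3 ± 14.8 CPM and Scx at 1.97 ± 3.94 CPM at day 0, with Tnmd at 52.2 ± 9.91 CPM and Scx at 4.69 ± 3.75 CPM at day 21 (n = 4 each). These levels come from 1 to 304 UMIs a gene and group.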
